A study of Mus musculus with 10 samples.

Results

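Histones are the proteins around which DNA is wound. They were examined here as 75 gene symbols out of 24000 rows per deposited table, taken by name alone: every symbol beginning Hist1h, Hist2h, Hist3h or Hist4h, which gave 68 replication-dependent genes, and the 7 replacement genes H2afx, H2afy, H2afz, H2afv, H1f0, H3f3a and H3f3b. Of the 68, 54 lie in the Hist1 cluster, 10 in Hist2, 3 in Hist3 and 1 in Hist4. By class they are 6 linker histone (H1), 18 H2A, 19 H2B, 12 H3 and 13 H4 genes, and 1 symbol, Hist3h2bb-ps, is a pseudogene.

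Replication-dependent histone genes lie in clusters and supply histones while DNA is copied. Their mRNAs have no intron and usually end in a conserved stem-loop, bound by the protein Slbp, in place of a poly(A) tail. Replacement histones come from single, mostly intron-containing genes with polyadenylated mRNA, are made through the whole cell cycle and accumulate in cells that have stopped dividing. A few replication-dependent genes, among them Hist1h1c, Hist1h2bc, Hist1h2ac and Hist2h2be, are known also as polyadenylated mRNA.

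The RNA came from epithelial cells sorted by flow cytometry from the mammary gland of female mice, wild type (WT) or knockout (KO) for Bptf, a subunit of the NURF chromatin remodelling complex. All mice had been given tamoxifen, 15 mg per kg in total. The 10 libraries form 5 groups of 2: WT luminal, KO luminal, WT myoepithelial (basal), KO myoepithelial, and Bsecs, an abbreviation that the labels leave unexplained and use with knockout mice only. The labels give no age, strain, allele or Cre driver, and 1 label of the luminal libraries titled KO names WT mice as their source. The tables held 1 value per group and none per library, so differences here have no replicate check, and whether a column pools both libraries was not stated.

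Reads recovered from those values summed to between 2036681 and 3840462 per column. The 2 basal columns carry opposite genotype names in different tables, so they are called the smaller basal column (2036681 reads) and the larger basal column (2359861 reads), and no genotype was read from them. Bptf itself was read 640 times in WT luminal cells, 1018 times in the KO-labelled luminal column, 420 and 780 times in the smaller and larger basal columns and 645 times in Bsecs. On the common scale, where each column is divided by a median-of-ratios size factor, that was 571, 736, 558, 750 and 680, so gene-level Bptf reads were no lower in the KO-labelled luminal column than in the WT column. Reads outside a deleted part would still be counted, so this checks no label. The 7 basal markers summed to 96.4 and 356 normalised reads in the WT and KO-labelled luminal columns, 34846 and 20818 in the smaller and larger basal columns and 12522 in Bsecs. The 8 luminal markers summed to 53927, 48380, 4456, 3152 and 16482 in the same order, and Cldn3 and Elf5 were at 0 in the smaller basal column. One luminal marker, the estrogen receptor gene Esr1, went the other way in that column, with 947 normalised reads there against 320 and 434 in the WT and KO-labelled luminal columns, 28.8 in the larger basal column and 63.2 in Bsecs. The 5 fibroblast markers summed to 816, 989, 312, 1920 and 283. Dcn made most of the luminal sums (775 and 983), while Col1a1, Col3a1 and Pdgfra were higher in both basal than in both luminal columns. Lum was clearly higher only in the larger basal column. The 4 endothelial markers summed to 14.3, 2.17, 45.1, 206 and 9.48, and the 5 immune markers to 19.6, 23.1, 17.3, 0.962 and 21.1. Of the 5 erythrocyte markers, Hba-a1, Hba-a2, Hbb-b1 and Hbb-b2 were at 0 in every column, and Alas2 had 0, 42, 3, 13 and 19 reads, called higher in the KO-labelled than in the WT luminal column. Their part in the histone differences was not tested.

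The 3′ ends that set the gene classes apart can be read in the reference. A 16-base stem-loop motif on the sense strand was searched in the longest coding transcript of each gene in GENCODE M21. It was present in 45 of the 68 replication-dependent genes (66.2%), in 1 of the 7 replacement genes (H2afx), and in 5.21% of 21877 protein-coding genes. The 23 replication-dependent genes without a match had a median annotated length of 411 bases, with 312 for Hist1h4k. A missing match can therefore mean a 3′ end that is not annotated. Hist1h2bp has the motif in 1 of its 2 transcripts, which is not the longest. The letters below show how little the element varies among the genes with most reads, with capitals for the letters that the motif fixes and lower case where it takes any base.
Hist1h1c, Hist1h1d, Hist1h1e, Hist3h2a and 21 others: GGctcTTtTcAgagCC
Hist1h4d and 6 other H4 genes: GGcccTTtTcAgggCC
Hist1h4i and Hist2h4: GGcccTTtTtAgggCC
H2afx: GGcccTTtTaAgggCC
The H1, H2A, H2B and H3 genes with the first form and the H4 genes with the second differ in the stem, and the last 3 forms shown share theirs. Hist1h4b and Hist1h4j, with 7 reads together, have a further form with another stem that is not shown. Hist1h2bc, which had the second most reads of the replication-dependent genes, had no match: its 1 annotated transcript runs to 1156 bases without the motif.

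Promoters are shown for 3 replication-dependent genes that were higher in luminal cells and for H1f0, a replacement linker gene with the same direction (RefSeq, GRCm38.p6, 250 bases before to 50 after the start, 5′ to 3′ on the gene's strand). Capitals mark matches on either strand to the octamer, spelled ATTTGCAT, the H1 box, spelled AAACACA, the pentamer CCAAT and the TATA box, spelled TATAAA.
Hist1h1c, chr13:23738557-23738856, + strand: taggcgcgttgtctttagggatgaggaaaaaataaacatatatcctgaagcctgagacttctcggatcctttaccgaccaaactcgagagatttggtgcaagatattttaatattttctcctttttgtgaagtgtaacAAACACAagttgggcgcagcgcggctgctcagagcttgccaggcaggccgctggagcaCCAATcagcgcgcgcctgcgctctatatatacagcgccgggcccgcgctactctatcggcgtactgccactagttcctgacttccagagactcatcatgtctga
Hist1h1e, chr13:23622509-23622808, - strand: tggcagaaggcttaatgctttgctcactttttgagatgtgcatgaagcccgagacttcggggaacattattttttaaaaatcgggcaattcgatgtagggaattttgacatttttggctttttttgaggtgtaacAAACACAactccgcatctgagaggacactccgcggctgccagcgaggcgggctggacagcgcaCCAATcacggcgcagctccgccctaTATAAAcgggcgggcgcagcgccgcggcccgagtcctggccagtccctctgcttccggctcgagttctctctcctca
Hist3h2a, chr11:58954435-58954734, + strand: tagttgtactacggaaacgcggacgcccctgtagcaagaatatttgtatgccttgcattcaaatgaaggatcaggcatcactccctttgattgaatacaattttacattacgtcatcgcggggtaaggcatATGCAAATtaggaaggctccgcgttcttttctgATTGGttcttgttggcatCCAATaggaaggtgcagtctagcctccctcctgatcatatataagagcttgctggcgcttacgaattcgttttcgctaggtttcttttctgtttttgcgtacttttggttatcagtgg
H1f0, chr15:79027962-79028261, + strand: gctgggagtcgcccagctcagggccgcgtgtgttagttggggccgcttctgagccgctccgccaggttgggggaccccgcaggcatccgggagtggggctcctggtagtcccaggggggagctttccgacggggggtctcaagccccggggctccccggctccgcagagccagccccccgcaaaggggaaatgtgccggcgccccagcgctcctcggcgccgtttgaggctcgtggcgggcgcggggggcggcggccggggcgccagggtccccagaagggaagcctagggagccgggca
Both linker genes of the cluster hold an H1 box followed by a CCAAT motif, Hist3h2a holds the octamer on the opposite strand with 2 CCAAT motifes, and the H1f0 window holds none of the 4 motifs. Promoters were found for 67 of the 75 genes, and the counts by class that follow are of replication-dependent genes only. Each count is of genes, and a gene holds a motif if any of its promoters does. The octamer was in promoters of 7 of 17 H2A and 7 of 16 H2B genes, of no H1, H3 or H4 gene, and of 1.97% of all 27025 genes. The H1 box was in promoters of 5 of 6 H1 genes against 8.22% of all genes. The CCAAT motif was in every H1, H2A, H2B and H3 promoter matched but in 3 of 12 H4 promoters, against 41.1% of all. TATAAA was in 4 of 6 H1, 11 of 17 H2A, 8 of 16 H2B, 4 of 10 H3 and 8 of 12 H4 promoters, against 15.7% of all. Of 6 replacement promoters, 4 held CCAAT and 1 (H3f3a) the H1 box. The octamer and TATAAA were each in 1 of the 6, that of H3f3b. Many H2A and H2B genes are divergent neighbours, so 1 stretch of DNA can be counted for both. A match is a description of letters and not a bound site.

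Most replication-dependent histone genes were barely read. Of the 68, 16 had 0 reads in every column, 32 had between 1 and 19 reads in all 5 columns together, and 20 had at least 20. All 7 replacement genes had at least 20. At least 1 read was found for 35 replication-dependent genes in WT luminal cells, 44 in the KO-labelled luminal column, 15 and 14 in the smaller and larger basal columns, and 29 in Bsecs. Depth differed between columns, so these numbers of genes carry no order of their own. A count of 0 allows up to 3 reads, which is 3.98 normalised reads in the shallowest column.

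**Figure D1:**
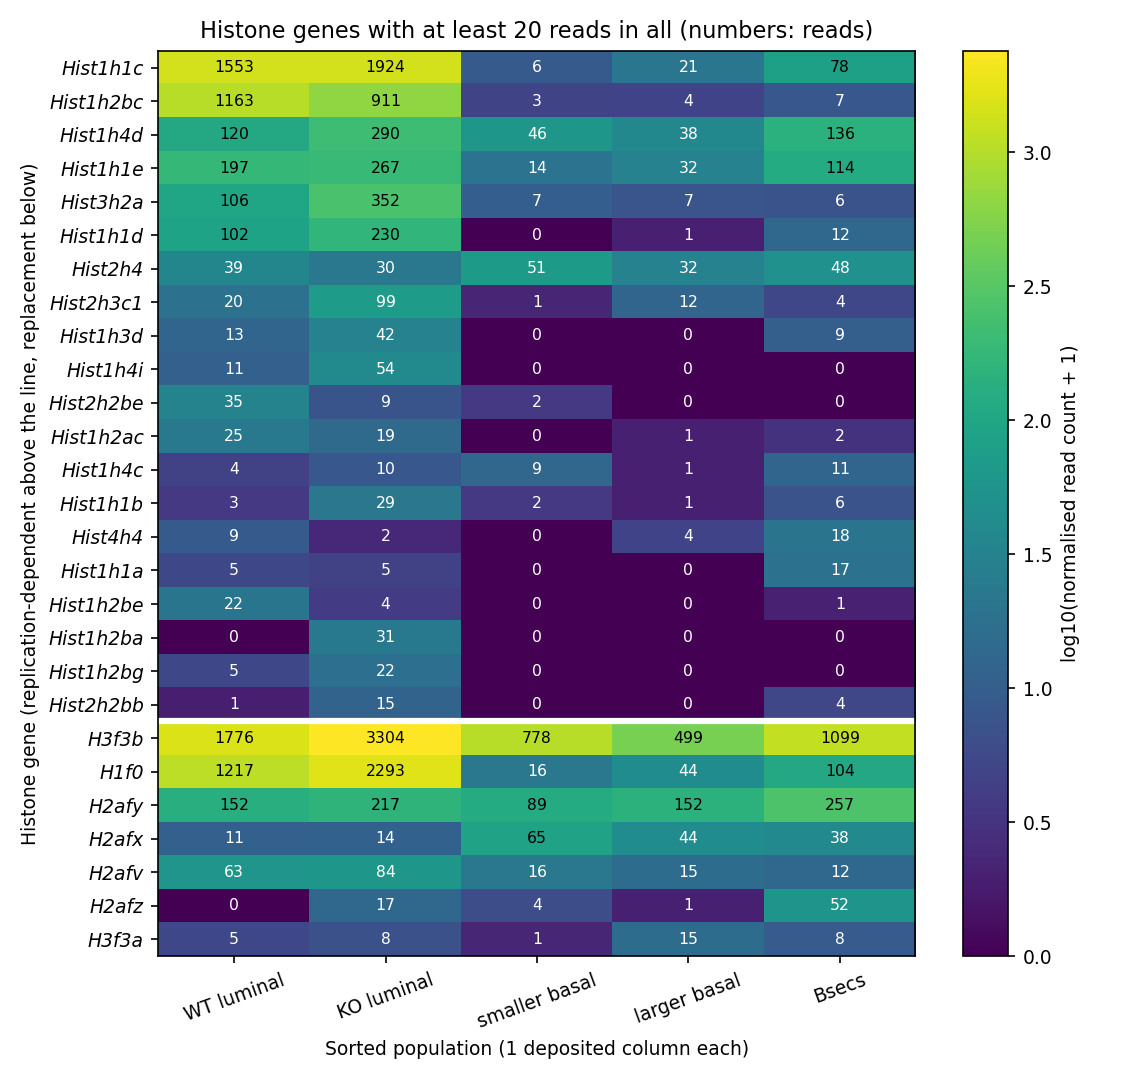
Reads of the 27 histone genes with at least 20 reads in all (rows) in the 5 deposited columns (x axis). Colour is log10 of the normalised read count plus 1, the printed numbers are reads, and the white line parts 20 replication-dependent from 7 replacement genes; Hist1h1c, Hist1h2bc and H1f0 are high in both luminal columns and low in the other 3.

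Luminal cells carried many times more replication-dependent histone reads than basal cells or Bsecs. These genes took 1271 reads per 1000000 reads (RPM) in WT luminal cells (95% exact binomial counting interval 1229 to 1314) and 1145 in the KO-labelled luminal column (1112 to 1180). They took 73.2 RPM in the smaller basal column (61.9 to 85.9), 67.8 in the larger (57.7 to 79.2) and 137 in Bsecs (125 to 150). The luminal shares were therefore 15.7 to 18.7-fold above the basal shares and 8.35 to 9.27-fold above that of Bsecs, and Bsecs lay 1.88 and 2.02-fold above the smaller and larger basal columns. Replacement genes took 1181, 1546, 476, 326 and 429 RPM in WT luminal, KO-labelled luminal, smaller basal, larger basal and Bsecs columns, a span of 2.48 to 4.74-fold between luminal and basal columns. In bulk RNA of sorted cells, fewer cells of a type and less RNA per cell cannot be told apart. Intervals cover counting error only, since PCR copies of 1 molecule could not be recognised without molecular identifiers. The rRNA precursor Rn45s took from 9.76% of reads in the larger basal column to 32.2% in Bsecs. Without it the Bsecs share of replication-dependent reads was 202 RPM, and the luminal shares were 6.74 and 7.03-fold above it.

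Within a column, the ratio of replication-dependent to replacement reads does not depend on the column's scale. It was 1.08 in WT luminal cells (1.03 to 1.13) and 0.741 in the KO-labelled luminal column (0.712 to 0.771). It was 0.154 in the smaller basal column (0.129 to 0.183), 0.208 in the larger (0.174 to 0.247) and 0.320 in Bsecs (0.289 to 0.354). The luminal columns thus stood highest, the basal columns lowest and Bsecs between. The counting intervals of the 2 basal columns overlapped and no others did. Without the 4 genes known also as polyadenylated mRNA, the ratio was 0.215, 0.259, 0.142, 0.174 and 0.264. WT luminal then stood below both the KO-labelled luminal column and Bsecs, which were level. The WT luminal interval (0.198 to 0.233) then overlapped that of the larger basal column (0.144 to 0.209).

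**Figure D2:**
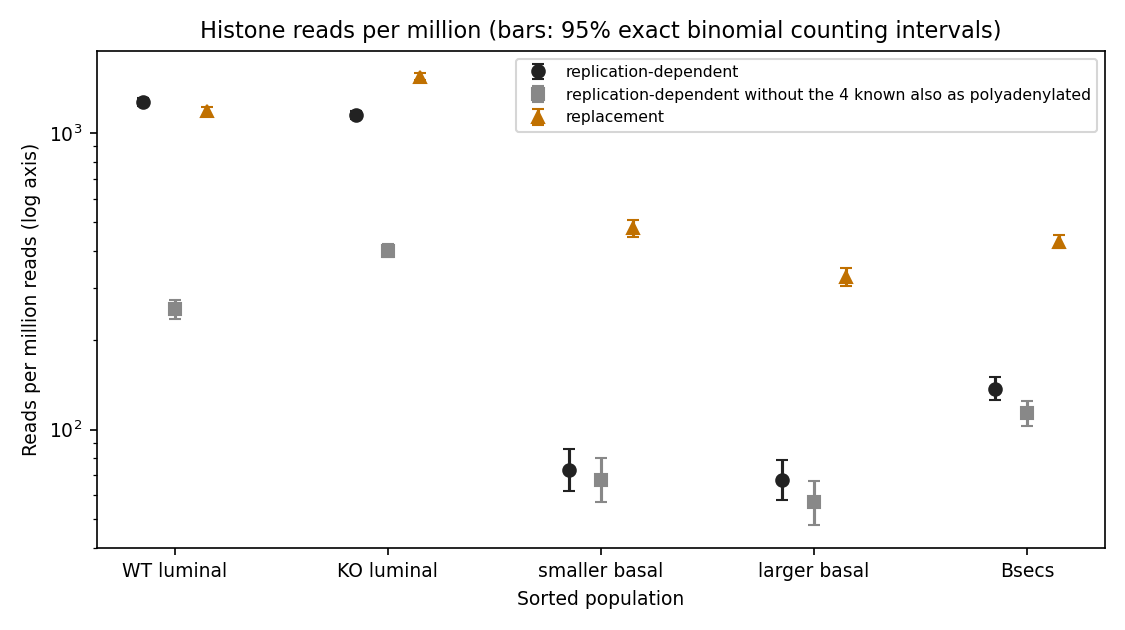
Reads RPM (log y axis) of replication-dependent genes, of the same without the 4 genes known also as polyadenylated, and of replacement genes in the 5 columns (x axis), with 95% exact binomial intervals as bars. The luminal points for all replication-dependent genes, 1271 and 1145, stand far above the basal points, 73.2 and 67.8, and the grey luminal points, 254 and 400, stand much closer to them.

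A pair of genes made most of the luminal excess. Hist1h1c and Hist1h2bc held 78.3% of replication-dependent reads in WT luminal cells and 64.4% in the KO-labelled luminal column, but 6.04% and 15.6% in the smaller and larger basal columns and 16.9% in Bsecs. Without the 4 polyadenylated genes, which include both, the share was 254 and 400 RPM in the luminal columns against 67.8 and 56.8 in the basal columns and 113 in Bsecs, still 3.75 to 7.04-fold higher in luminal than in basal columns. Basal columns were made up differently, with H4 genes at 71.8% and 46.9% of replication-dependent reads in the smaller and larger column. In the luminal columns H4 genes held 5.51% and 9.14%. In Bsecs they held 43.4%, beside 45.2% for H1 genes.

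Counted gene by gene, 17 of the 24 histone genes that had at least 20 reads over the 4 luminal and basal columns had both luminal values above both basal values, against 30.3% of 11911 genes tested in the same way. They were 14 of 17 replication-dependent and 3 of 7 replacement genes. A gene read mainly in luminal cells passes this filter through that group, so the 17 are not a count over all members. One gene, H2afx, had both basal values above both luminal values, against 25.4% of all genes. Hist1h2ba, Hist1h4c, Hist2h4, H2afy, H2afz and H3f3a showed neither order. The lineage order of each of these genes was the same on column totals without Rn45s.

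Linker histones had the highest summed level of the replication-dependent classes in both luminal columns and, narrowly over H4, in Bsecs, while H4 stood above them in both basal columns. Hist1h1c encodes H1.2, a linker histone that many non-dividing cells also make. It was read 1553 times in WT luminal cells, 1924 in the KO-labelled luminal column, 6 and 21 times in the smaller and larger basal columns and 78 times in Bsecs, or 1387, 1391, 7.97, 20.2 and 82.2 normalised reads. Both luminal columns were alike, and the lowest of the 4 luminal-over-basal folds was 68.7 (95% counting interval 44.8 to 111). H1f0 encodes H1.0, the replacement linker histone that is known to accumulate in differentiated cells. It had 1217, 2293, 16, 44 and 104 reads in the same order. The lowest luminal-over-basal fold of H1f0 was 25.7 (19.0 to 35.5), so the replacement linker gene was split between the lineages in the same direction as Hist1h1c.

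Hist1h1e, encoding H1.4, had 197, 267, 14, 32 and 114 reads, so Bsecs stood between the basal and luminal columns on the common scale (120 normalised reads against 176 and 193 in luminal and 18.6 and 30.8 in basal columns). Hist1h1d, encoding H1.3, had 102 and 230 reads in luminal columns, 0 and 1 in the smaller and larger basal columns and 12 in Bsecs. Against the smaller basal column the fold of Hist1h1d was at least 22.9 for WT luminal and at least 41.7 for KO-labelled luminal, taking 3 reads as the floor. Per kilobase of RefSeq transcript, Hist1h1c led the family in both luminal columns with 1913 and 1918 normalised reads, above H1f0 with 474 and 723. In Bsecs the order per kilobase changed, with Hist1h1e at 154 above Hist1h1c at 113 and H1f0 at 47.8. The RefSeq lengths of Hist1h1c, Hist1h1e and H1f0 were 725, 782 and 2293 bases, against 1560, 1930 and 2055 in GENCODE M21. The values per kilobase and their order therefore depend on the length taken. Hist1h1t, the testis linker histone gene, had no read in any column. Summed over the 6 replication-dependent H1 genes, the level was 1661, 1774, 29.2, 52.9 and 239 normalised reads in WT luminal, KO-labelled luminal, smaller basal, larger basal and Bsecs columns.

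Of the core histone genes, Hist1h2bc, which encodes an H2B, was almost confined in reads to the luminal columns. It had 1163 and 911 reads there, 3 and 4 in the smaller and larger basal columns and 7 in Bsecs. Against the basal columns the 4 folds ran from 165 (56.4 to 803) to 270 (105 to 993). The H2B class as a whole summed to 1106, 723, 9.29, 3.85 and 14.8 normalised reads in column order and so followed this 1 gene. Hist3h2a, an H2A gene outside the large cluster, had 106 and 352 luminal reads, 7 in either basal column and 6 in Bsecs, and its luminal-over-basal folds ran from 10.2 (4.77 to 25.9) to 37.8 (18.2 to 94.7). H2A genes together summed to 124, 283, 13.3, 13.5 and 28.4.

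H3 and H4 genes differed less between the lineages. H3 genes summed to 35.7, 109, 3.98, 11.5 and 16.9 normalised reads in column order, with Hist2h3c1 the most read (20, 99, 1, 12 and 4 reads). H4 genes summed to 171, 291, 142, 72.1 and 230, so the smaller basal column lay near WT luminal and Bsecs above it. Hist1h4d had 120, 290, 46, 38 and 136 reads, and its luminal-over-basal folds ran from 1.75 (1.24 to 2.52) to 5.74 (4.08 to 8.27). Hist2h4 had 39, 30, 51, 32 and 48 reads, or 34.8, 21.7, 67.7, 30.8 and 50.6 normalised reads, with no order of lineages. By cluster the Hist1 genes summed to 2903, 2805, 113, 97.1 and 432 normalised reads, and the Hist2 genes to 90.2, 117, 75.7, 46.2 and 71.6.

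The reads within the Hist1 cluster came from few places. In RefSeq order on chromosome 13, 53 Hist1 genes fell into 4 blocks parted by gaps of over 100 kb. The third block, 29 genes from Hist1h4h to Hist1h1a, gave 97.6% of the reads of those 53 genes and held 11 of the 14 genes with at least 20 reads. Neighbours differed widely: Hist1h2bc lies next to Hist1h1t, which had no read, and Hist1h1c follows Hist1h4c, which had 4, 10, 9, 1 and 11 reads in the 5 columns. In basal columns Hist1h4d led the block, while Hist1h1c led it in luminal columns.

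**Figure D3:**
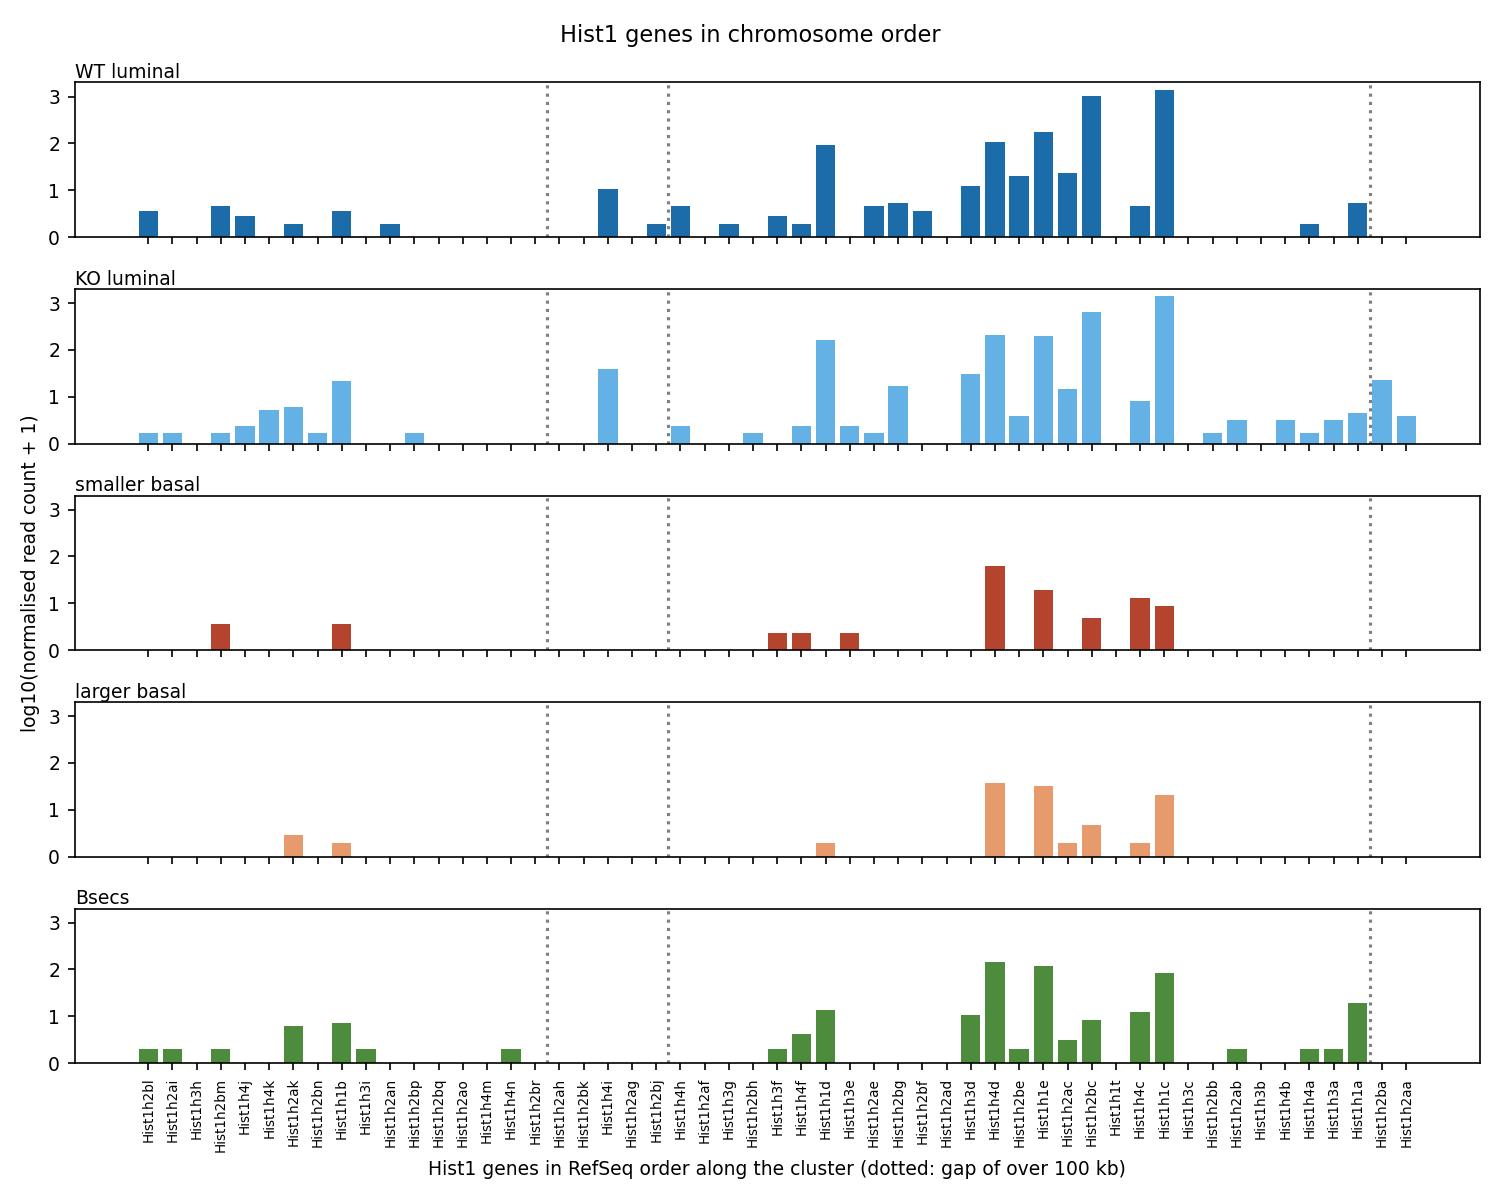
Normalised read count plus 1, on a log10 scale (y axis), of 53 Hist1 genes in RefSeq order along the cluster (x axis, not to genomic scale), 1 panel per column, with dotted lines at gaps of over 100 kb. Bars stand mainly in the third block in every panel, with Hist1h1c and Hist1h2bc tallest in luminal panels and Hist1h4d tallest in basal panels and Bsecs.

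Which genes were read also went with their annotated 3′ ends. Of the 68 replication-dependent genes, 23 had at least 100 bases of transcript annotated beyond the stem-loop motif. These had 6324 reads in all, and 14 of them had at least 20 reads. The 22 genes whose transcript ended within 100 bases of the motif had 46 reads together, and none reached 20. The 23 genes with no match had 2309 reads, of which 2088 were from Hist1h2bc, and 6 reached 20. A short annotation can place a gene in this last group. The median annotated length was 1249, 483.5 and 411 bases in the 3 groups, so the group with the longest transcripts also had the most reads. Genes with extended transcripts gave 64.6% and 76.3% of replication-dependent reads in WT and KO-labelled luminal columns and 91.3%, 93.1% and 87.8% in the smaller basal, larger basal and Bsecs columns.

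Sequence sharing between copies went with low reads as well. For each gene, the share of 50-base words of its longest transcript that also occur in transcripts of other genes was computed. Of 21 genes with more than 75% of words shared, 10 had any read and the median was 0 reads. Of 13 genes with some but at most 25% shared, all 13 had reads and the median was 35. Extended transcripts shared a median of 24.6% of words against 63.1% for transcripts that end near the motif, and they were longer. The parts of 3′ end, transcript length and sharing therefore cannot be told apart here. How the authors' counting treated reads that match several genes, and whether it used strand, is not given in the sources used here, so values of near-identical genes such as Hist2h3c1 and Hist2h2bb (100% of words shared) are uncertain. H2afz shared 69.6% of its words, Hist1h1e 32.0%, Hist3h2a 31.5%, Hist1h2bc 30.6% and H3f3a 30.3%, against 8.54% for Hist1h1c and 8.40% for H3f3b. The words of Hist1h2bc were shared with 220 other genes.

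**Figure D4:**
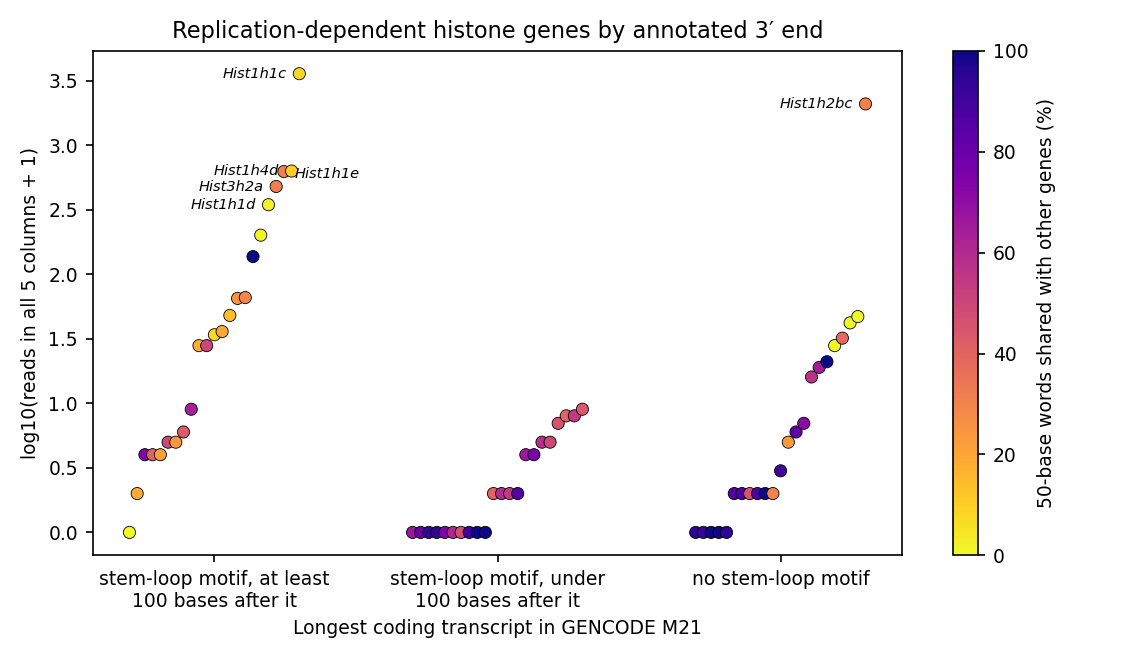
Reads in all 5 columns plus 1 (log10, y axis) of the 68 replication-dependent genes, in 3 groups by the annotated end of the longest coding transcript (x axis), coloured by the percentage of 50-base words shared with other genes. Genes with an extended transcript reach the most reads, genes ending near the motif stay below 20, and the dark points, with most words shared, lie mostly near 0.

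Replacement histones did not move as one group. H3f3b, which encodes H3.3, was the most read histone gene in the 5 columns added up, with 1776, 3304, 778, 499 and 1099 reads in column order. Its luminal-over-basal folds ran from 1.54 (1.41 to 1.67) to 4.98 (4.53 to 5.48). H3f3a encodes the same protein but had 5, 8, 1, 15 and 8 reads, too few to order the columns. H2afy, encoding macroH2A1, was nearly level between the lineages with 136 and 157 normalised reads in luminal and 118 and 146 in basal columns, and stood at 271 in Bsecs.

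The H2A variant genes showed several orders. H2afx, encoding the histone that is phosphorylated at DNA breaks, had 11 and 14 reads in luminal columns, 65 and 44 in the smaller and larger basal columns and 38 in Bsecs. It was the reverse of Hist1h1c, and its basal-over-luminal folds ran from 4.18 (2.25 to 8.26) to 8.79 (4.60 to 18.5). H2afv, encoding H2A.Z.2, had 63, 84, 16, 15 and 12 reads and was 2.65 to 4.21-fold higher in luminal than in basal columns. H2afz, encoding H2A.Z.1, had 0, 17, 4, 1 and 52 reads and was highest in Bsecs.

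In the KO-labelled luminal column against WT luminal, 7 of the 21 histone genes with at least 20 reads in the pair were at least 2-fold higher with a counting interval that excludes 1, and 2 were lower, against 17.3% higher and 15.5% lower of 10613 genes tested. Their median log2 fold of values plus 1 was 0.57 against 0.02 for all genes. The 7 and the 2 were all replication-dependent, and none of the 5 replacement genes tested was called. Genes read mainly in 1 of the columns, such as Hist1h2ba and Hist1h1b, passed the 20-read filter through that column. The testis H2B gene Hist1h2ba had 31 reads against 0, at least 8.23-fold higher. Hist1h1b (H1.5) had 29 against 3 reads and was 7.70-fold higher (2.39 to 39.5). The H3 gene Hist2h3c1 was 3.94-fold higher (2.42 to 6.73) with 99 against 20 reads, and the H4 gene Hist1h4i 3.91-fold (2.02 to 8.30) with 54 against 11. The H2B gene Hist1h2bg was 3.51-fold higher (1.30 to 11.9) with 22 against 5 reads. The H2B genes Hist1h2be (4 against 22 reads, 6.90-fold, 2.34 to 27.6) and Hist2h2be (9 against 35, 4.88-fold, 2.30 to 11.5) were lower. Hist3h2a, which had the most reads of the 7, was 2.65-fold higher (2.12 to 3.32) with 352 against 106 reads. Of the genes with still more reads, Hist1h1c was level, Hist1h2bc was at 658 against 1038 normalised reads, and H3f3b and H1f0 did not pass 2-fold. The authors' deposited table gave 1 of the 75 genes an unadjusted DESeq p under 0.05 here, as 3.74% of all genes had, Hist1h2ba (p = 0.0415, adjusted 1.0 by Benjamini-Hochberg over the table), and none an adjusted p under 0.05, a level reached by 0.0882% of all genes. With an assumed dispersion of 0.16, edgeR's exact test called 1 histone gene, against 1.54% of all genes.

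In the median, the replication-dependent histone genes with at least 20 reads in the pair lay lower in Bsecs than in either luminal column. Against the KO-labelled luminal column, 14 of 23 tested histone genes stood lower and 5 stood higher, against 28.8% and 21.7% of 10413 genes. Against WT luminal, 10 of 20 were lower and 5 higher, against 28.1% and 24.1% of 10125 genes. The medians were -1.56 and -1.15 on the log2 scale of values plus 1, against -0.07 and -0.05 for all genes. They were -2.26 and -2.25 for the replication-dependent genes tested (17 and 14 of 68) and -0.09 and 0.33 for the replacement genes tested. Both comparisons share the Bsecs column. Genes with few Bsecs reads, such as Hist1h2bg (0 against 22 in the KO-labelled luminal column), passed the 20-read filter through the luminal side. These calls and medians therefore do not describe all members. Hist1h2bc was 86.8-fold lower (41.9 to 216) than in the KO-labelled luminal column and 135-fold lower (65.3 to 337) than in WT luminal. Hist1h1c was 16.4-fold (13.1 to 20.9) and 16.2-fold lower (12.9 to 20.6). Hist3h2a was 39.1-fold (17.8 to 107) and 14.4-fold lower (6.38 to 40.0). H1f0 was 14.7-fold lower (12.1 to 18.1) and Hist2h3c1 16.5-fold lower (6.25 to 61.7) than in the KO-labelled luminal column. Below WT luminal, Hist1h2be (1 against 22 reads) was 17.9-fold (2.89 to 738) and Hist1h2ac (2 against 25) 10.2-fold lower (2.53 to 88.5).

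A smaller set was higher in Bsecs than in luminal columns. H2afz was at least 21.3-fold above WT luminal, where it had 0 reads, and 4.59-fold (2.61 to 8.46) above the KO-labelled luminal column. H2afx was 4.25-fold (2.13 to 9.22) and 4.07-fold (2.16 to 8.13) higher. Hist1h1a, encoding H1.1, was 4.18-fold (1.48 to 14.5) and 5.10-fold (1.81 to 17.7) higher on 17 reads against 5 in both. The H4 gene Hist4h4 was 2.46-fold (1.05 to 6.22) and 13.5-fold (3.23 to 120) higher, H2afy was 2.08-fold above WT luminal (1.70 to 2.56), and Hist2h4 2.40-fold above the KO-labelled luminal column (1.49 to 3.92). In the authors' deposited table, Hist1h2bc had a DESeq p of 8.55e-05 against WT luminal and an adjusted p of 0.0450, the only histone gene past 0.05 in any of the 6 tables, where 0.21% of all genes passed. Against the KO-labelled luminal column its p was 9.2e-05 and its adjusted p 0.0908, and 0.0405% of all genes passed. Unadjusted p-values under 0.05 were given to 4 histone genes against WT luminal and to 6 against the KO-labelled luminal column, and to 4.29% and 3.81% of all genes. With the assumed dispersion, edgeR's exact test called 8 histone genes against WT luminal and 10 against the KO-labelled luminal column, beside 13.8% and 11.1% of all genes.

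The linker genes Hist1h1c, Hist1h1e and H1f0 and the H4 gene Hist1h4d were higher in Bsecs than in either basal column. Against the larger basal column, 7 of 12 tested genes were higher and none lower, against 21.8% and 23.8% of 9815 genes. Against the smaller, 6 of 11 were higher and 1 lower, against 22.7% and 23.4% of 9213 genes. The medians were 1.32 and 1.18 against -0.02 and 0.03 for all genes. Genes with few basal reads, such as H2afz (52 against 1 in the larger column) and Hist4h4 (18 against 4), passed the 20-read filter mainly through Bsecs. These calls and medians therefore do not describe all members. Hist1h1c was 4.09-fold (2.50 to 6.97) above the larger and 10.2-fold (4.50 to 28.7) above the smaller column, Hist1h1e 3.92-fold (2.63 to 6.0) and 6.41-fold (3.67 to 12.1), and Hist1h4d 3.94-fold (2.73 to 5.80) and 2.33-fold (1.66 to 3.33). H2afz was 57.2-fold (9.82 to 2302) above the larger column, where it had 1 read, and 10.2-fold (3.77 to 39.0) above the smaller, where it had 4. Hist4h4 was 4.95-fold above the larger column (1.63 to 20.1), and H1f0 2.60-fold above the larger (1.81 to 3.79) and 5.12-fold above the smaller (3.01 to 9.29). The other H4 genes tested were not called, with Hist2h4 at 1.65-fold of the larger column (1.03 to 2.67) and 0.741-fold of the smaller (0.489 to 1.12) and Hist1h4c at 0.963-fold of the smaller (0.363 to 2.63). H2afx was 2.17-fold lower than in the smaller column (1.43 to 3.33). The authors' deposited tables gave 1 histone gene an unadjusted DESeq p under 0.05 against the larger column and 0 against the smaller. Of all genes, 4.61% and 4.91% had such a p. Past an adjusted 0.05 there were 0 histone genes, beside 0.481% and 0.759% of all genes. With the assumed dispersion, edgeR's exact test called 2 histone genes against the larger column and 4 against the smaller, beside 8.51% and 10.1% of all genes. Scaling by column totals left 4 genes higher than in the larger column.

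Between the basal columns, 3 of 9 tested histone genes were higher in the smaller column and none lower, against 19.0% and 20.3% of 9483 genes, and scaling by column totals turned this to 0 higher and 2 lower. The 3 were Hist2h4 (2.23-fold, 1.41 to 3.59), H3f3b (2.18-fold, 1.95 to 2.45) and H2afx (2.07-fold, 1.39 to 3.10), each close to the 2-fold limit. The authors' deposited table gave none of the 75 genes a DESeq p under 0.05 here, adjusted or not. Of all genes, 3.09% had such a p unadjusted and 0.0274% adjusted. The exact test of edgeR with the assumed dispersion called 0, beside 2.4% of all genes. The fibroblast markers were at 312 normalised reads in the smaller and 1920 in the larger column, and their part in this was not tested.

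**Figure D5:**
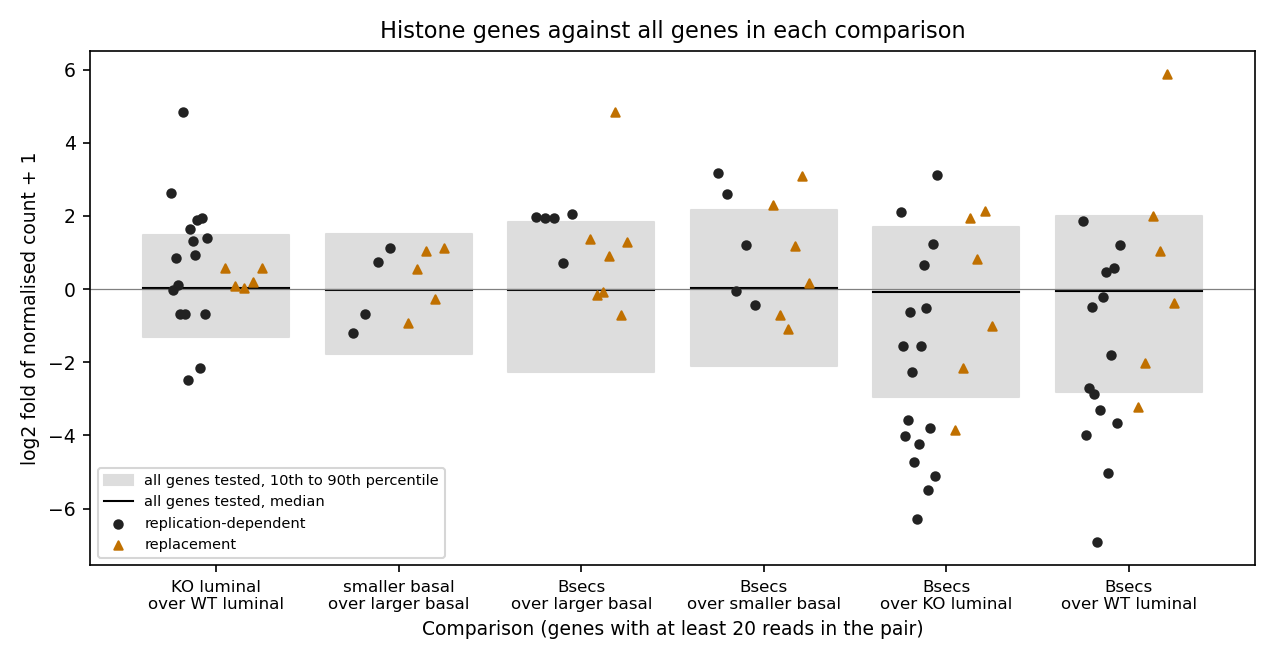
Log2 fold of normalised count plus 1 (y axis) of the histone genes with at least 20 reads in each pair of columns (x axis), with the 10th to 90th percentile of all genes tested as grey bars and their median as a line. Replication-dependent genes reach far below the grey bar in Bsecs over either luminal column, where Hist1h2bc is lowest.

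The genes that serve histone supply showed no luminal excess in sum. The 10 genes of histone mRNA processing summed to 968 and 792 normalised reads in WT and KO-labelled luminal columns, 953 and 1167 in the smaller and larger basal columns and 1481 in Bsecs. Cpsf2, a subunit of the cleavage complex, had 160, 112, 228, 297 and 489 normalised reads. Eri1, an exonuclease that trims the stem-loop end, had 219, 114, 114, 162 and 227, and Cpsf3, the endonuclease, 216, 196, 86.3, 114 and 129. Slbp, which binds the stem-loop, had 16.1, 36.9, 42.5, 44.2 and 173, highest in Bsecs and lowest in WT luminal cells. Of the list, 5 of 9 tested stood higher in Bsecs than in the KO-labelled luminal column and 1 stood lower, 3 of 8 higher and 0 lower than in WT luminal, and 2 of 9 higher and 0 lower in KO-labelled over WT luminal. Of all genes tested, 21.7%, 24.1% and 17.3% were higher in these 3 comparisons and 28.8%, 28.1% and 15.5% lower, so the last count was near the background.

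Of 22 histone chaperone and deposition genes listed, 20 matched a symbol. They summed to 4025, 3049, 4496, 5055 and 4759 normalised reads. Atrx, which deposits H3.3 with Daxx, had 1016, 595, 709, 1275 and 1010, Ep400, a remodeller that exchanges H2A.Z, had 416, 504, 435, 427 and 255, and Nap1l4, a chaperone of H2A and H2B, had 489, 254, 510, 246 and 444. Against the KO-labelled luminal column, 6 of 18 tested stood higher in Bsecs and 0 lower, and against WT luminal 5 of 17 stood higher and 0 lower. All genes tested gave 21.7% and 24.1% higher and 28.8% and 28.1% lower, so the higher calls against WT luminal were near the background. The S-phase chaperone genes Asf1b, Chaf1a and Chaf1b were at or near 0, with at most 2, 12 and 11 reads in any column.

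S-phase genes, in sum, stood at similar levels in luminal and basal columns. The 19 S-phase genes summed to 511 and 476 normalised reads in WT and KO-labelled luminal columns against 520 and 492 in the smaller and larger basal columns and 665 in Bsecs. Pcna, the sliding clamp of DNA replication, had 67.0, 60.0, 87.6, 144 and 214, and Mcm6, a helicase subunit, had 156, 107, 59.7, 51.0 and 15.8. Pcna was thus higher in both basal columns and Mcm6 in both luminal columns, so similar sums do not mean that each gene was level. The 12 genes of G2 and M phase were low, at 94.7, 42.6, 9.29, 52.9 and 21.1 in sum, and Bub1 was at 0 in every column. Mki67, a marker of cycling cells, had 34, 2, 3, 26 and 3 reads, Aurka, a mitotic kinase, had 37, 16, 0, 0 and 1, and Top2a, a topoisomerase, had 4, 27, 2, 8 and 1. Between the luminal columns these 3 genes went both ways, and their part in the histone differences was not tested.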

How the data were processed

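RNA from FACS-sorted mammary epithelial cells was extracted with TRIzol, amplified with the Ovation RNA-seq system (V2) and made into barcoded libraries, per the labels' protocols. Per the submitters' processing notes, STAR and DESeq were used with build mm9; no version, read counter, annotation or strand setting is named there. The authors deposited 6 tables that give, per the file headers, the mean signal of either group (read counts divided by size factors) and an unadjusted p-value per gene. There are 0 columns per library.

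Every deposited signal value was a whole multiple of 1 step per column (100% within 0.01 of a read), so reads were recovered, and 5 distinct columns were traced through the tables. Totals ran from 2036681 to 3840462 reads, and genes near 0 have wide intervals. The deposited p-values compare 1 column with 1 column and hold no spread between replicates. Folds used the authors' size factors and levels across tables used median-of-ratios factors over the 5 columns. A gene was called at 2-fold or more with an exact binomial (Clopper-Pearson) 95% interval excluding 1, among genes with at least 20 reads in the pair. A fold against 0 reads uses a floor of 3 reads per column and is a lower bound. The authors' DESeq p-values were adjusted by the Benjamini-Hochberg method over each table. Alternatives were other scales, thresholds, pseudocounts, members and the exact test of edgeR 4.0.16 on recovered reads with an assumed dispersion of 0.16. The statistics were also tested on simulated data: with counting error alone intervals held near their stated level, but with a spread between libraries of the assumed dispersion they covered the true fold less than their level states, and the 2-fold rule also called unchanged genes.

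Named genes were all replacement genes, replication-dependent genes with a mean of at least 50 normalised reads, the 5 largest folds at most per direction and comparison, and up to 3 per pathway list with the highest mean. Other genes with values, named for small counts, were picked with their values in view. The members and lists were chosen with earlier results of these data known. The lists of histone mRNA processing, chaperone, S-phase, G2 and M, variant and polyadenylated genes and of cell type markers are read by sums and counts with no set test. Sequences come from GENCODE M21 transcripts and RefSeq tables (GRCm38.p6), which are of another build than the files, and were joined by symbol, with 74 of 75 matched in RefSeq. Python 3.11.15 with scipy 1.17.1 was used.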

Additional observations from a re-analysis of the deposited data

How the results depend on the processing

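No paired analysis was possible because the deposited columns hold 1 value per group and no library, and for the same reason no replicate could be left out. The following orders turned under some settings: the split between the basal columns, and the place of WT luminal cells in the ratio of replication-dependent to replacement reads. Between the basal columns, column totals and column totals without Rn45s each gave 0 histone genes higher and 2 lower in the smaller column, in place of 3 and 0. Column totals shifted all log2 folds of Bsecs over the larger basal, smaller basal, KO-labelled luminal and WT luminal columns by -0.77, -0.50, -0.52 and -0.72, of KO-labelled over WT luminal by -0.17 and of the smaller over the larger basal column by -0.27. They left Bsecs with 4 genes higher and 1 lower than the larger basal column, 2 lower than the smaller, and 2 higher than WT luminal (3 on totals without Rn45s). At 4-fold in place of 2-fold, 2 genes were higher in KO-labelled over WT luminal, 0 in the smaller basal column, 3 in Bsecs over larger basal and 3 in Bsecs over WT luminal, and 0 were lower in Bsecs than in the smaller basal column. With at least 100 reads, 2 were higher and 0 lower in KO-labelled over WT luminal, 4 were higher in Bsecs over larger basal, 0 higher and 7 lower in Bsecs over KO-labelled luminal, and 1 higher and 5 lower in Bsecs over WT luminal, since fewer genes were tested. With at least 4 reads, 2 were lower in the smaller basal column and 11 were higher in Bsecs over either basal column. Shares of all genes were not counted under these scales and thresholds. These histone counts therefore have no background and show only how the calls depend on the setting.

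The edgeR exact test with an assumed dispersion called 1 higher and 0 lower in KO-labelled over WT luminal, 0 higher in the smaller basal column, 2 higher in Bsecs over larger basal, 0 lower than smaller basal, 1 higher and 9 lower in Bsecs over KO-labelled luminal, and 1 higher in Bsecs over WT luminal. The authors' DESeq p-values, adjusted over the table, called 1 gene (Hist1h2bc, lower in Bsecs than in WT luminal) and 0 in every other direction and comparison. Unadjusted, 1, 0, 1, 0, 6 and 4 histone genes were under 0.05, beside 3.74%, 3.09%, 4.61%, 4.91%, 3.81% and 4.29% of all genes. The order is KO-labelled over WT luminal, smaller over larger basal, then Bsecs over larger basal, smaller basal, KO-labelled luminal and WT luminal. With H2afx counted as replication-dependent, the ratio to replacement reads was 0.237 and 0.281 in the smaller and larger basal columns. Without Hist1h1c it was 0.594, 0.417 and 0.270 in WT luminal, KO-labelled luminal and Bsecs. Without the 4 genes known also as polyadenylated it was 0.215, 0.259, 0.174 and 0.264 in WT luminal, KO-labelled luminal, larger basal and Bsecs. The intervals of WT luminal and the larger basal column then overlapped, and WT luminal moved from the highest to below KO-labelled luminal and Bsecs. The RPM of the remaining genes was likewise lower in WT luminal (254) than in KO-labelled luminal (400). Without Rn45s in the total, replication-dependent RPM were 1422, 1362, 87.3 and 202 in WT luminal, KO-labelled luminal, smaller basal and Bsecs. The cause of these shifts was not tested where the setting itself does not give it. Depth limits the basal columns most, with 149 and 160 replication-dependent reads in all.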

Other observations

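Of 8 other histone variant genes outside the members, 7 matched a symbol. H2afj, an H2A variant gene that is known to rise in senescent human cells, had 51 reads in WT luminal cells, 182 in the KO-labelled luminal column, 109 and 40 in the smaller and larger basal columns and 37 in Bsecs, which is 45.5, 132, 145, 38.5 and 39.0 normalised reads. H2afj was thus high in 1 luminal and 1 basal column and showed no order of lineages. H2afy3 had 1, 24, 0, 11 and 0 reads. H2afy2, encoding macroH2A2, had 0, 1, 0, 2 and 13 reads. Cenpa, the centromeric H3, had 0, 11, 0, 1 and 0 reads, and H2afb1 and Hils1 had none in any column. At these counts no order of the columns was detectable for H2afy2, H2afy3 or Cenpa beyond the single column with most reads.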
